A study of Mus musculus with 6 samples.

Results

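The T cell receptor is the antigen sensor of the T cell, and 10 genes of its complex and its partners were followed: the CD3 chain genes Cd3d, Cd3e and Cd3g, the receptor constant region genes Trac, Trbc2 and Trdc, the coreceptor genes Cd4, Cd8a and Cd8b1, and the costimulatory receptor gene Cd28. They were taken by symbol from the 55291 genes of the expression table, and all 10 were listed. The study measured polyadenylated RNA in 6 bulk libraries from mouse liver tumours labelled RIL-175/PD-1R, RIL-175 being a mouse liver cancer cell line. The labels do not explain PD-1R. The Cre_PD1 group held 3 tumours from LysM-Cre mice, and the MKO_PD1 group held 3 tumours from Trem2-MKO mice, which lack Trem2 in myeloid cells. All mice were treated with anti-PD-1, which blocks PD-1, a brake on T cell activation. A knockout in myeloid cells is not directed at T cells. The LysM promoter, named for the Cre_PD1 mice, is active in macrophages, monocytes and neutrophils. The labels give no age, no antibody dose and no batch, and they do not say whether the MKO_PD1 mice also carried LysM-Cre. The question addressed here is how the RNA of the T cell receptor complex, and the balance of CD4, CD8 and gamma-delta T cell genes, compared between the groups.

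Most T cells carry a receptor made of an alpha and a beta chain, whose variable segments bind antigen and whose constant regions anchor the receptor in the membrane. A smaller lineage, the gamma-delta T cells, uses a gamma and a delta chain. Neither pair can signal alone: the CD3 gamma, delta and epsilon chains and the zeta chain carry the motifs that the kinase Lck phosphorylates when antigen is bound. CD4 and CD8 bind MHC class II and class I beside the receptor and bring Lck to it, which separates helper from cytotoxic T cells, and CD28 gives the second signal when it meets CD80 or CD86. In the liver and its tumours, CD8 T cells are a main target of PD-1 blockade, and gamma-delta T cells and natural killer (NK) cells are common neighbours.

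Between 26747236 and 34264909 reads per library were recovered from the deposited values, counting only the 29352 genes whose values gave whole reads. Levels are in TPM, a length-normalised unit, after each library was scaled to a total of 1000000. Trem2, the targeted gene, stood at 10.5, 16.5 and 14.9 TPM in Cre_PD1 replicates 1, 2 and 3 and at 7.68, 18.0 and 6.81 TPM in MKO_PD1 replicates 1, 2 and 3, so its level overlapped between the groups (log2 difference -0.44, SE 0.40, limma with Benjamini-Hochberg adjustment, adjusted p = 0.432). MKO_PD1 replicates 1 and 3 lay below every Cre_PD1 library, and MKO_PD1 replicate 2 was the highest of the 6. Trem2 RNA is counted over the whole gene, and bulk libraries can hold cells the knockout spares, so these values cannot check the labels. The cause of the overlap was not tested. Markers of other tissue components moved with the groups, though none of their genes was called by limma. Together 14 hepatocyte marker genes, all with an unadjusted p below 0.05, took 0.942% to 2.09% of TPM in Cre_PD1 and 2.62% to 11.2% in MKO_PD1, lowest among MKO_PD1 in replicate 2, and the summed TPM of 7 liver tumour epithelial markers, 5 of them with an unadjusted p below 0.05, was 18117 to 24710 against 2470 to 9838. Of the 16506 genes that reached 1 TPM in 3 or more libraries, 4612 had an unadjusted p below 0.05 and 2 passed an adjusted p of 0.05. The median log2 difference of all 16506, MKO_PD1 minus Cre_PD1, was -0.42. Values for a gene are given below in the order of replicates 1, 2 and 3 of each group.

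The receptor complex genes did not separate the groups. Of the 10 genes, 9 passed the filter on low values and were tested, all but Trdc, and none of the 9 was called by limma, which called 0.0121% of all tested genes. None reached an unadjusted p of 0.05 either, which 4612 of all tested genes did. The adjusted p-values of the 9 ran from 0.584 for Cd4 to 0.982 for Cd3d, with 7 log2 differences above 0 and 2 below, a median of 0.07, and SEs of 0.50 to 0.69 where the median SE of all tested genes was 0.35. In none of the 10 were the groups separate, meaning that all 3 libraries of a group lay above all 3 of the other, whereas 39.0% of all tested genes were separate (28.9% lower in MKO_PD1). The main contrast lay inside the MKO_PD1 group. MKO_PD1 replicate 2 had the highest level of 8 of the 10 genes, as it did for 23.3% of tested genes. In each of the 8 it had at least 2 times the next library, a profile shared by 3.26% of tested genes. MKO_PD1 replicate 1 had the lowest level of 9. The share of all tested genes lowest in that library was not computed, so this count cannot be called particular to the 10 genes. In bulk RNA, fewer T cells and less RNA per T cell cannot be told apart.

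**Figure D1:**
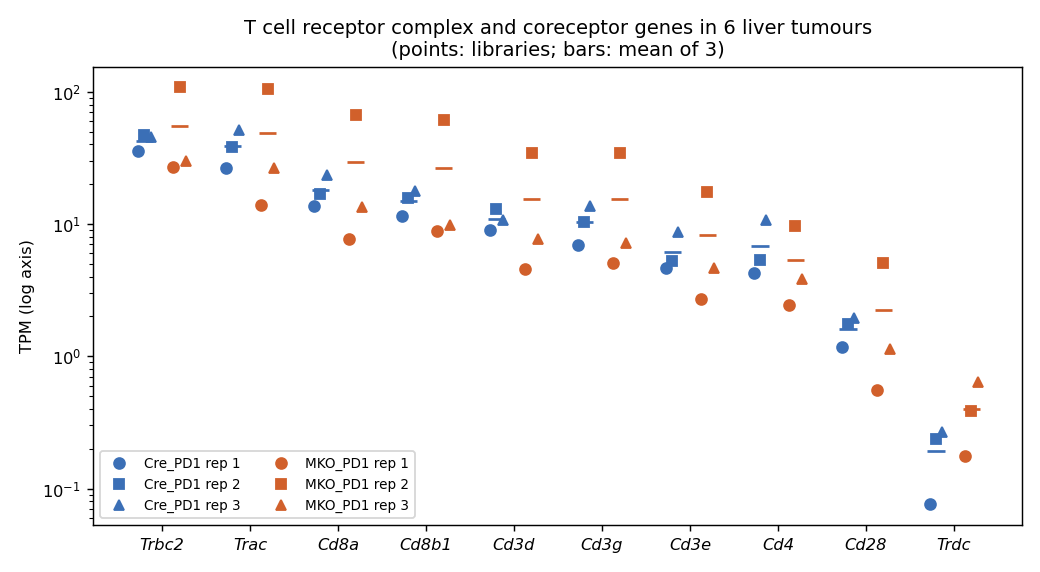
TPM of the 10 genes on a log axis, with 1 point per library (colour gives the group, shape the replicate) and bars at the mean of 3. MKO_PD1 replicate 2 is the top point of 8 genes, the exceptions being Cd4, where Cre_PD1 replicate 3 is highest, and Trdc, where MKO_PD1 replicate 3 is highest.

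The CD3 chains are the invariant signalling chains of every T cell receptor. Cd3e, which encodes CD3 epsilon, a chain present in pairs with both CD3 gamma and CD3 delta, measured 4.65, 5.25 and 8.64 TPM in Cre_PD1 and 2.73, 17.4 and 4.66 TPM in MKO_PD1. MKO_PD1 replicate 2 was 2.02 times the highest other library, while MKO_PD1 replicate 1 lay below the Cre_PD1 range and replicate 3 at its bottom. The group means were 6.18 ± 2.15 and 8.28 ± 7.99 TPM (SD, n = 3), with a log2 difference of 0.06 (SE 0.58, limma, Benjamini-Hochberg adjusted p = 0.939). Cd3d, which encodes CD3 delta, measured 8.94, 13.0 and 10.7 TPM in Cre_PD1 and 4.54, 34.4 and 7.71 TPM in MKO_PD1. Here too a single MKO_PD1 library stood above all others and the other two stood below every Cre_PD1 library. Means were 10.9 ± 2.03 and 15.6 ± 16.4 TPM, and the log2 difference was 0.02 (SE 0.63, limma, adjusted p = 0.982). Cd3g, which encodes CD3 gamma, measured 6.95, 10.4 and 13.6 TPM in Cre_PD1 and 5.11, 34.3 and 7.23 TPM in MKO_PD1. MKO_PD1 reached both below and above the Cre_PD1 range, with replicate 3 inside it, and the log2 difference was 0.14 (SE 0.63, limma, adjusted p = 0.874).

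The CD3 genes lie together on mouse chromosome 9 (build GRCm38), Cd3g at 44969572 to 44980431 on the minus strand, Cd3d at 44981786 to 44987339 on the plus strand and Cd3e at 44998740 to 45009627 on the minus strand. Exons of an antisense gene, Gm48719, overlap those of Cd3e, and without strand the reads of the pair cannot be told apart. Cd3g and Cd3d are read away from each other, their starts 1355 bases apart. Across the libraries the 3 genes followed each other closely: the root mean square distance of the log2 profile of a gene from their mean profile was 0.093 for Cd3g, 0.134 for Cd3e and 0.161 for Cd3d, against a median of 0.703 over all tested genes. Their own mean is the reference in that measure, so closeness is partly built in. Because these genes move together, the 250 bases before each start are shown, from RefSeq on GRCm38.p6, on the strand of the gene. The RefSeq start of Cd3e lies inside the GENCODE gene given above, so the last bases of its window belong to that gene model. Capitals mark matches, on either strand, to 5 short motifs of factors active in T cells. The letters searched were ACCACA for the RUNX factors, and CTTTGA for the factors TCF7 and LEF1. For the GATA family they were AGATAA, for the ETS family they were ACTTCC, and for E-box proteins they were CAGCTG. Of the 10 genes, 4 had an entry, and the fourth, Cd8a, is shown with them as the coreceptor promoter.
Cd3g, chr9:44980432-44980681, minus strand: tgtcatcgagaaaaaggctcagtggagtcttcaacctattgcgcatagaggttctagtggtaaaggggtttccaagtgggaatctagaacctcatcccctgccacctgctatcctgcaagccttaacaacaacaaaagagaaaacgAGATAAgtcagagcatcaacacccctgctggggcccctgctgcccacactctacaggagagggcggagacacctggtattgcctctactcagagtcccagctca
Cd3d, chr9:44981536-44981785, plus strand: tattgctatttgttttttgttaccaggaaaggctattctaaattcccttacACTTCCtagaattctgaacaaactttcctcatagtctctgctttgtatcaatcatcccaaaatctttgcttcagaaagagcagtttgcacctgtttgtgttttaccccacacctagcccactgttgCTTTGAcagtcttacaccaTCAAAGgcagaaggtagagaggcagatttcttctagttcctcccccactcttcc
Cd3e, chr9:45009612-45009861, minus strand: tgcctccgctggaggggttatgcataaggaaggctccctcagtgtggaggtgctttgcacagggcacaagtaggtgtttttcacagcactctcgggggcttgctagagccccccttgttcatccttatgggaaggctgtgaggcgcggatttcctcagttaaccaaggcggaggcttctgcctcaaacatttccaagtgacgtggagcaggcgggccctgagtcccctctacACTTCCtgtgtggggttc
Cd8a, chr6:71373177-71373426, plus strand: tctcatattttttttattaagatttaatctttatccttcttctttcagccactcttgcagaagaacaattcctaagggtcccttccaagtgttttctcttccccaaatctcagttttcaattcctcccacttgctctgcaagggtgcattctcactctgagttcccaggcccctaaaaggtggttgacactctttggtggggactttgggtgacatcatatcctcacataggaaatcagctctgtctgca

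The Cd3g window held 1 GATA match, 104 bases before the start. The Cd3d window held the TCF7/LEF1 letters on each strand, 73 and 54 bases before the start, and an ETS match at 199. The Cd3e window held an ETS match 18 bases before the RefSeq start, which spans the GENCODE start, and the Cd8a window held none of the 5. The motifs are common: 19.7% of 32851 promoter windows of this length held the ETS letters, 14.0% RUNX, 13.8% TCF7/LEF1, 13.0% E-box and 9.99% GATA. No motif was shared by all 4 windows, and matches describe letters, not binding.

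In TPM, the constant regions of the alpha and beta chains gave the highest levels of the set. They anchor these chains of the receptor in the membrane. Trac, the constant region of the alpha chain, measured 26.4, 38.0 and 51.7 TPM in Cre_PD1 and 14.0, 106 and 26.5 TPM in MKO_PD1. MKO_PD1 replicate 2 again stood alone at the top, and replicate 3 sat level with the lowest Cre_PD1 library. Means were 38.7 ± 12.7 and 48.7 ± 49.6 TPM (SD, n = 3), and the log2 difference was -0.12 (SE 0.66, limma, adjusted p = 0.900). Trbc2, a constant region of the beta chain, measured 35.4, 47.3 and 45.3 TPM in Cre_PD1 and 27.0, 108 and 29.9 TPM in MKO_PD1. MKO_PD1 replicates 1 and 3 were below all Cre_PD1 libraries and replicate 2 was 2.28 times the highest of the others. The log2 difference was 0.07 (SE 0.50, limma, adjusted p = 0.925). Trac lies on chromosome 14 at 54220521 to 54224206 and Trbc2 on chromosome 6 at 41546730 to 41548352, both on the plus strand.

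A beta chain uses Trbc2 or its near copy Trbc1, which starts 8512 bases upstream. Their coding sequences, of 518 bases each, are 95.6% identical, with 23 differing bases and an identical run of 259, so reads from the shared run cannot be placed on either gene with certainty and the split between them is uncertain. Most of the differences that can tell them apart fall in the stretch from coding base 400 to 489, shown in reference sequence with its 14 differing bases in capitals.
Trbc1: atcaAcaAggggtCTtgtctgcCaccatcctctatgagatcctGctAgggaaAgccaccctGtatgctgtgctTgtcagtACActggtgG
Trbc2: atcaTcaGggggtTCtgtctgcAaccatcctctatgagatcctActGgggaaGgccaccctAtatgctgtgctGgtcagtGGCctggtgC

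Trbc1 measured 19.6, 25.7 and 39.9 TPM in Cre_PD1 and 18.2, 85.1 and 13.8 TPM in MKO_PD1, peaking in the same library as Trbc2. The log2 difference was 0.04 (SE 0.64, limma, adjusted p = 0.965). The Trbc1 to Trbc2 ratio was 0.553, 0.543 and 0.880 in Cre_PD1 and 0.675, 0.790 and 0.460 in MKO_PD1, which overlap. The variable segments, which differ between T cell clones, were also highest in MKO_PD1 replicate 2. Summed beta variable segments measured 36.7, 33.4 and 45.8 TPM in Cre_PD1 and 20.4, 120 and 37.2 TPM in MKO_PD1. Of 35 beta segments listed, 14 to 17 were above 0 in the other 5 libraries and 20 in MKO_PD1 replicate 2, where more reads (459, against 102 to 155) fell on them. The leading beta segment took 17.5% of the beta variable sum in that library and 19.5% to 23.5% in the others. The effective number of beta segments, the inverse of the summed squared shares, was 9.94 there and 7.48 to 9.27 elsewhere. The high level in MKO_PD1 replicate 2 was therefore spread over many beta segments and was not carried by a single segment. Segment counts say nothing of single clones, since many clones share a segment.

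CD8, the coreceptor of cytotoxic T cells, is a pair of chains encoded by Cd8a and Cd8b1, whose starts lie 50639 bases apart on chromosome 6. Cd8a (71373427 to 71379173, plus strand) measured 13.8, 16.7 and 23.3 TPM in Cre_PD1 and 7.65, 67.2 and 13.3 TPM in MKO_PD1. MKO_PD1 replicate 2 was 2.89 times the highest other library, and the other MKO_PD1 libraries were below all Cre_PD1 libraries. The means were 17.9 ± 4.87 and 29.4 ± 32.9 TPM (SD, n = 3), with a log2 difference of 0.14 (SE 0.69, limma, adjusted p = 0.890). Cd8b1 (71322788 to 71337494, plus strand) measured 11.5, 15.6 and 17.8 TPM in Cre_PD1 and 8.90, 61.1 and 9.88 TPM in MKO_PD1. Its excess in MKO_PD1 replicate 2, 3.42 times the next library, was the widest of the 10 genes. Its log2 difference was 0.26 (SE 0.67, limma, adjusted p = 0.787). Cd8b1 bears on which cells carry Cd8a: conventional T cells use the alpha and beta chains together, while some dendritic cells and intraepithelial lymphocytes use Cd8a alone. The Cd8b1 to Cd8a ratio was 0.838, 0.933 and 0.767 in Cre_PD1 and 1.16, 0.909 and 0.741 in MKO_PD1, so Cd8b1 accompanied Cd8a in each library and the ratio of the library with most Cd8a lay within the range of the others. The mean log2 ratio was -0.25 ± 0.14 and -0.12 ± 0.33 (SD, n = 3; exact two-sided permutation p = 0.7, 0.7 after Benjamini-Hochberg adjustment over the 4 ratios tested), and 0.1 is the smallest p that 3 against 3 allows.

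CD4 is the coreceptor of helper and regulatory T cells and is also made by some dendritic cells and macrophages. Cd4 (chromosome 6, 124864692 to 124888221, minus strand) measured 4.27, 5.37 and 10.8 TPM in Cre_PD1 and 2.46, 9.70 and 3.85 TPM in MKO_PD1. It differed from the other alpha-beta T cell genes in its top library, Cre_PD1 replicate 3, with MKO_PD1 replicate 2 next at 0.898 times that level. The means were 6.82 ± 3.50 and 5.34 ± 3.85 TPM, and the log2 difference was -0.38 (SE 0.50, limma, adjusted p = 0.584). Its profile lay 0.413 from the CD3 mean profile, while the other 8 tested genes lay between 0.093 and 0.194.

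The balance of CD8 to CD4 was read within each library, where the scaling cancels out. Cd8a to Cd4 was 3.22, 3.12 and 2.15 in Cre_PD1 and 3.11, 6.92 and 3.47 in MKO_PD1. Cd8a exceeded Cd4 in every library, and MKO_PD1 replicate 2 stood well above the rest, which all lay between 2.15 and 3.47. The mean log2 ratio was 1.48 ± 0.32 in Cre_PD1 and 2.07 ± 0.63 in MKO_PD1 (SD, n = 3), a 1.51-fold difference with groups that overlap (exact two-sided permutation p = 0.3, adjusted 0.4). Without MKO_PD1 replicate 2 the log2 difference fell from 0.60 to 0.24 (exact permutation p = 0.6), and without MKO_PD1 replicate 1 it was 0.81 (exact permutation p = 0.1). Against the other chains, Cd4 to Cd3e was 0.918, 1.02 and 1.25 in Cre_PD1 and 0.901, 0.556 and 0.826 in MKO_PD1, groups that do not overlap. This ratio was chosen after its values were seen, has no test, and its separation is not rare: 17.9% of all tested genes gave a ratio to Cd3e that was likewise separate and lower in MKO_PD1. Cd8a to Cd3e was 2.96, 3.19 and 2.69 in Cre_PD1 and 2.80, 3.85 and 2.86 in MKO_PD1, which overlap.

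**Figure D2:**
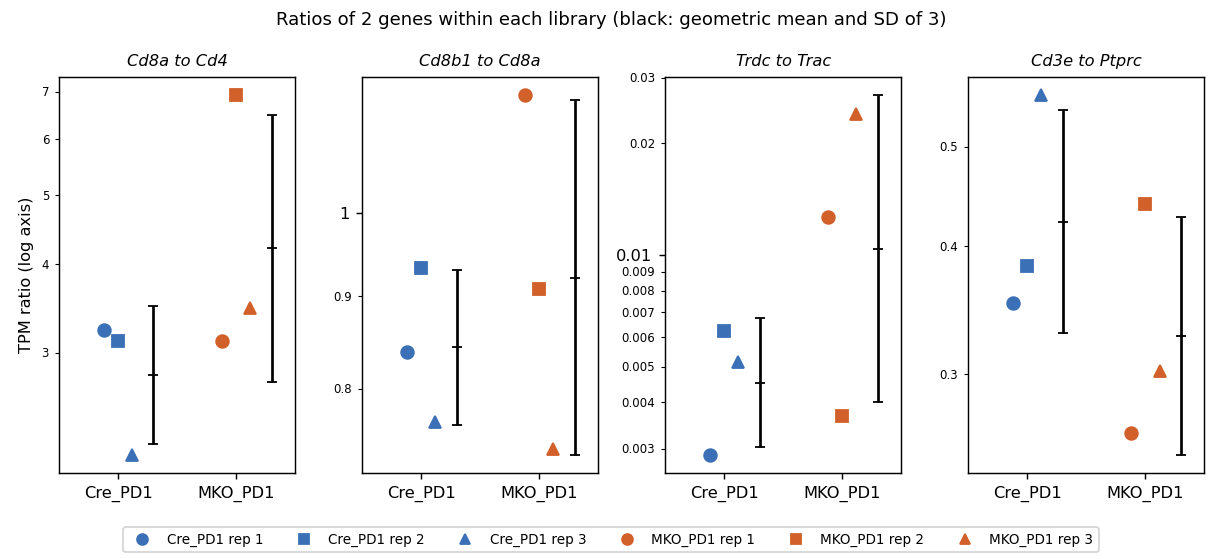
Ratios of TPM for pairs of genes within each library on log axes, with 1 point per library and the geometric mean and SD of 3 in black. The groups overlap in all 4 ratios, and MKO_PD1 replicate 2 has the highest Cd8a to Cd4 ratio at 6.92.

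The delta chain constant region marks gamma-delta T cells, and it was close to the detection limit. Trdc (chromosome 14, 54142851 to 54148868, plus strand) measured 0.0763, 0.237 and 0.266 TPM in Cre_PD1 and 0.178, 0.388 and 0.636 TPM in MKO_PD1, from 3, 11 and 9 reads and from 9, 15 and 26 reads. The top library was MKO_PD1 replicate 3, with an exact Poisson 95% interval of 17.0 to 38.1 reads that covers counting error only, and the bottom was Cre_PD1 replicate 1, with 0.619 to 8.77 reads. The groups overlapped, with means of 0.193 ± 0.102 and 0.401 ± 0.230 TPM (SD, n = 3). Trdc fell below the filter, and in the fit without a filter its log2 difference was 0.22 (SE 0.15, limma, adjusted p = 0.443 over 30804 genes). Some of these reads may not be from Trdc transcripts, since an antisense gene, Gm43434, and a delta variable segment on the other strand overlap it and the strandedness of the counting is not given in the sources used here.

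The Trdc to Trac ratio, the balance of gamma-delta to alpha-beta receptor, was 0.00289, 0.00623 and 0.00513 in Cre_PD1 and 0.0127, 0.00368 and 0.0240 in MKO_PD1. MKO_PD1 replicates 1 and 3 were above all Cre_PD1 libraries, and MKO_PD1 replicate 2, where Trac was highest, was second lowest. The mean log2 ratio was -7.79 ± 0.58 and -6.59 ± 1.38 (SD, n = 3), a log2 difference of 1.20 with groups that overlap (exact two-sided permutation p = 0.3, adjusted 0.4). It rests on few reads: with a pseudocount of 1 TPM on both genes it was 0.34 (exact permutation p = 0.7). Without MKO_PD1 replicate 2 it was 1.95 (exact permutation p = 0.1, the smallest this design gives there). The gamma constant region Trgc2 measured 4.73, 4.46 and 4.62 TPM in Cre_PD1 and 2.42, 14.8 and 5.38 TPM in MKO_PD1. Trgc2 therefore followed the alpha-beta genes in its top library and not Trdc, with a log2 difference of 0.32 (SE 0.52, limma, adjusted p = 0.662). Trgc1 and Trgc4, further gamma constant genes, fell below the filter and were not tested. Trgc4 measured 0.499, 0.592 and 0.232 TPM in Cre_PD1 and 0.697, 1.93 and 0.672 TPM in MKO_PD1. Its groups were separate, with MKO_PD1 higher, as in 10.1% of tested genes. Trgc1 measured 0.213, 0.180 and 0.988 TPM in Cre_PD1 and 0.990, 0 and 0.614 TPM in MKO_PD1, which overlap. Gamma rearrangement also occurs in alpha-beta T cells, and the gamma constant genes are similar in sequence, so the split between them is uncertain. Of 8 further gamma-delta markers, 4 passed the filter, none was called, and Il17a, Il17f, Il23r and Cd163l1 stayed below it. Of the 4 tested, 3 separated the groups, as 39.0% of all tested genes did. Their directions were opposite: Zbtb16 (log2 difference 0.72, SE 0.30, limma, adjusted p = 0.173) and Maf (0.62, SE 0.29, adjusted p = 0.190) were higher in MKO_PD1 and Sox13 (-0.76, SE 0.28, adjusted p = 0.168) was lower. These genes are also expressed outside gamma-delta T cells. The sums of the 8, to which Maf and Sox13 gave most, overlapped between groups, 34.8 to 44.0 TPM in Cre_PD1 and 35.2 to 53 TPM in MKO_PD1.

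CD28 was the lowest of the genes after Trdc. Cd28 (chromosome 1, 60716800 to 60773359, plus strand) measured 1.17, 1.75 and 1.94 TPM in Cre_PD1 and 0.561, 5.05 and 1.14 TPM in MKO_PD1. MKO_PD1 replicate 2 was again highest, at 2.61 times the next library, and MKO_PD1 replicates 1 and 3 were lowest. The means were 1.62 ± 0.400 and 2.25 ± 2.44 TPM (SD, n = 3), with a log2 difference of 0.07 (SE 0.50, limma, adjusted p = 0.926). Of its ligands on antigen-presenting cells, Cd86 measured 14.6, 15.0 and 15.2 TPM in Cre_PD1 and 15.9, 34.1 and 17.4 TPM in MKO_PD1. All 3 MKO_PD1 libraries were above all Cre_PD1 libraries, as in 10.1% of tested genes, but the log2 difference of 0.48 was not called (SE 0.33, limma, adjusted p = 0.322). Cd80, the other of these ligands, overlapped between groups, as did Icosl, the gene of the ICOS ligand.

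On the length-normalised scale, which allows levels of different genes to be set side by side, the order by median TPM over the 6 libraries was Trbc2 (40.4), Trac (32.3), Cd8a (15.3), Cd8b1 (13.6), Cd3d (9.85), Cd3g (8.80), Cd3e (4.95), Cd4 (4.82), Cd28 (1.46) and Trdc (0.251). Some neighbours were not ordered alike in all libraries: Trbc2 was above Trac in 5 of 6, Cd8a above Cd8b1 in 5, Cd3d above Cd3g in 4 and Cd3e above Cd4 in 4. Trac was above Cd8a, Cd8b1 above Cd3d, Cd3g above Cd3e, Cd4 above Cd28 and Cd28 above Trdc in all 6. The lengths used cover all annotated exons of a gene, not the transcript expressed, so this order depends on the gene models. Over the 6 libraries Cd3e had 1817 reads and Cd3d 1499, yet Cd3d ranked higher, with lengths of 4080 and 1815 bases.

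Most of the remaining genes of the receptor pathway were highest in the same library. Cd247, the zeta chain, measured 2.05, 2.73 and 2.31 TPM in Cre_PD1 and 1.13, 7.38 and 1.63 TPM in MKO_PD1, which gave a log2 difference of 0.11 (SE 0.51, limma, adjusted p = 0.885). Lck, the kinase that starts CD3 phosphorylation, measured 10.6, 14.1 and 15.8 TPM and 5.73, 37.9 and 8.94 TPM (log2 difference -0.06, SE 0.61, limma, adjusted p = 0.947). Zap70, which docks on phosphorylated CD3, measured 9.04, 11.0 and 13.0 TPM and 7.52, 23.0 and 8.69 TPM (log2 difference 0.08, SE 0.43, limma, adjusted p = 0.899). MKO_PD1 replicate 2 was highest and MKO_PD1 replicate 1 lowest for each of these. The adaptor gene Lat measured 4.23, 8.34 and 8.21 TPM and 3.64, 20.7 and 6.42 TPM (log2 difference 0.24, SE 0.57, limma, adjusted p = 0.762). Of 22 proximal signalling genes 17 were tested and none was called, 10 with differences above 0 and 7 below, with a median of 0.22 (14 and 3, and 0.55, under median-of-ratios scaling). MKO_PD1 replicate 2 was the highest library for 20 of the 22 and at least 2 times the next for 13, against 23.3% and 3.26% of all tested genes. The exceptions to the pattern of overlap were Plcg1, a phospholipase that many tissues express, separate and lower in MKO_PD1 (log2 difference -0.78, limma, adjusted p = 0.176), and Lcp2, an adaptor shared with myeloid cells, separate and higher (0.72, adjusted p = 0.205). Among all tested genes, 28.9% were separate and lower and 10.1% separate and higher. Of 11 other T cell surface genes 10 were tested and none was called, with MKO_PD1 replicate 2 the highest library for all 11. They include Thy1, at 27.6, 37.6 and 43.4 TPM in Cre_PD1 and 12.9, 90.7 and 20.9 TPM in MKO_PD1.

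Of 11 transcription factors of T cells, 7 were highest in MKO_PD1 replicate 2. The 8 tested gave no call. Tcf7, a factor of naive and stem-like T cells, measured 3.36, 4.55 and 4.04 TPM in Cre_PD1 and 6.69, 6.53 and 7.27 TPM in MKO_PD1. Its groups do not overlap, and 10.1% of all tested genes were likewise separate and higher. MKO_PD1 replicate 2 was not the top library of Tcf7 (log2 difference 0.66, SE 0.27, limma, adjusted p = 0.173). Gata3 (log2 difference -1.59, SE 0.50) and Zbtb7b (-0.76, SE 0.27) were separate and lower, as were 28.9% of all tested genes, each with a limma adjusted p of 0.168. Gata3 is also made by epithelia, and the summed epithelial markers were lower in MKO_PD1 as well. The part of epithelia in the result was not tested, nor was the cell source of Tcf7 and Zbtb7b RNA in these bulk libraries. Zbtb7b measured 42.7 to 109 TPM over the 6 libraries, where Cd4 measured 2.46 to 10.8 TPM.

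**Figure D3:**
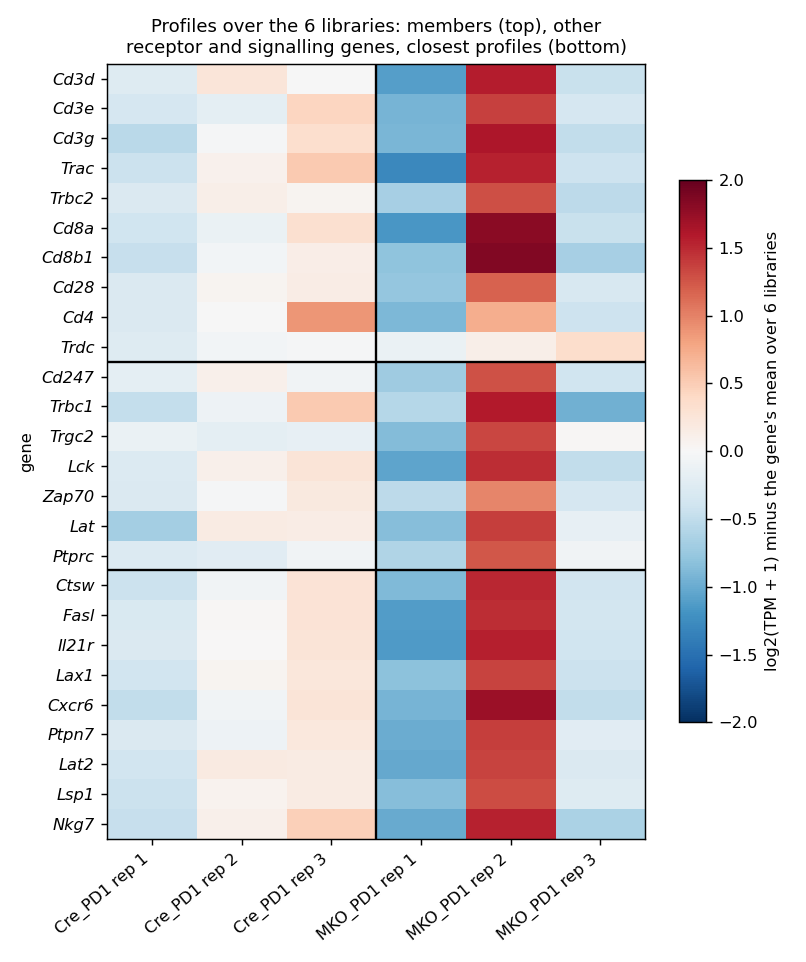
Each row is a gene and each column a library; colour gives log2(TPM + 1) minus the mean of that gene over 6 libraries. The 10 genes are on top, other receptor and signalling genes, with Lck, in the middle and the rest of the 10 closest profiles at the bottom. The MKO_PD1 replicate 2 column is the darkest red for all rows but Cd4 and Trdc. The closest profiles were chosen for their likeness to the CD3 genes, so their peak in that column is built in.

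The 10 genes outside the set with the profile closest to the CD3 mean, by root mean square distance over the 6 libraries and with receptor segments and predicted genes left out, were Ctsw (0.060), Fasl (0.072), Il21r (0.074), Lck (0.075), Lax1 (0.097), Cxcr6 (0.103), Ptpn7 (0.113), Lat2 (0.122), Lsp1 (0.134) and Nkg7 (0.134). Ctsw encodes a cathepsin of cytotoxic lymphocytes, Fasl a death ligand, Cxcr6 a chemokine receptor of tissue T cells and Nkg7 a cytotoxic granule protein. Fasl, as an instance, measured 3.00, 4.0 and 4.95 TPM in Cre_PD1 and 1.26, 12.7 and 2.83 TPM in MKO_PD1. Nkg7, at a higher level, measured 40.6, 60.2 and 78.4 TPM in Cre_PD1 and 27.6, 165 and 35.9 TPM in MKO_PD1. Several of these genes are also expressed by NK cells.

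Markers of neighbouring cells were compared for the same libraries. Summed CD3 chains were 20.5 to 33.0 TPM in Cre_PD1 and 12.4 to 86.2 TPM in MKO_PD1, and summed coreceptors 29.6 to 51.9 TPM and 19.0 to 138 TPM. Of 10 NK cell markers 9 were highest in MKO_PD1 replicate 2 and 3 at least 2 times the next, with sums of 479 to 607 TPM and 550 to 1331 TPM carried mostly by Tyrobp and Fcer1g, which myeloid cells also make. The defining NK receptor gene Ncr1 did not follow, at 0, 1.03 and 1.63 TPM in Cre_PD1 and 1.53, 1.36 and 1.29 TPM in MKO_PD1. The pan-leukocyte gene Ptprc measured 13.2, 13.7 and 15.4 TPM in Cre_PD1 and 10.4, 39.6 and 15.4 TPM in MKO_PD1, again highest in replicate 2. All 10 macrophage markers had differences above 0, with sums of 2500 to 3418 TPM and 3113 to 6372 TPM. None was called, and 3 had an unadjusted p below 0.05, as did 4612 of the 16506 tested genes. In MKO_PD1, 5 were separate and higher, as were 10.1% of all tested genes. Among the 5 were Adgre1 (log2 difference 0.97, SE 0.25, limma, adjusted p = 0.168) and Csf1r (0.69, SE 0.25, adjusted p = 0.168). B cell marker sums, 5.75 to 30.3 TPM and 18.1 to 21.6 TPM, were not highest in MKO_PD1 replicate 2. Of the antigen-presenting genes that the receptor reads, all 9 MHC class I and all 7 MHC class II genes had differences below 0 on the TPM scale, with medians of -0.36 and -0.10, and all 16 were highest in MKO_PD1 replicate 2. Under median-of-ratios scaling, which sets the median of all genes near 0, 7 of the 9 class I and all 7 class II differences were above 0, so the direction of both lists turned on the scaling. MKO_PD1 replicate 2 carried more RNA of T cell, leukocyte and antigen-presentation genes together, and the part of these other cells in the levels of the 10 genes was not tested.

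**Figure D4:**
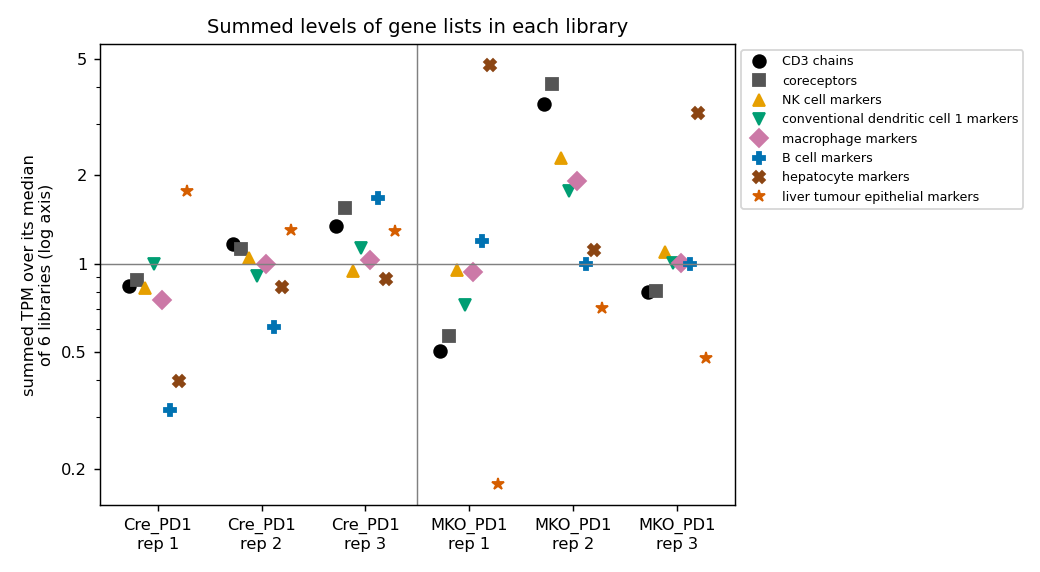
Summed TPM of 8 gene lists in each library, divided by the median of that sum over the 6 libraries, on a log axis with a line at 1. In MKO_PD1 replicate 2 the CD3 chains and coreceptors lie highest, followed by NK cell, macrophage and dendritic cell markers, while B cell and hepatocyte markers lie near the median.

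To set T cell RNA against leukocyte RNA, Cd3e to Ptprc was read, which was 0.352, 0.382 and 0.562 in Cre_PD1 and 0.263, 0.440 and 0.302 in MKO_PD1. It is a ratio of RNA levels and not a share of cells, since RNA per cell was not measured. In this ratio MKO_PD1 replicate 2 lay inside the Cre_PD1 range and the other MKO_PD1 libraries lay below it. The mean log2 ratio was -1.24 ± 0.36 and -1.61 ± 0.39 (SD, n = 3), a difference of -0.37 with groups that overlap (exact two-sided permutation p = 0.3, adjusted 0.4). Without MKO_PD1 replicate 2 it was -0.59 (exact permutation p = 0.2). Cd4 to Ptprc was 0.323, 0.392 and 0.703 in Cre_PD1 and 0.237, 0.245 and 0.249 in MKO_PD1. The groups do not overlap, but this ratio was picked after its values were seen, and 56.7% of all tested genes gave a ratio to Ptprc that was separate and lower.

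Since MKO_PD1 replicate 2 set the group means, the comparison was repeated without it, a choice that follows from its values. All 9 tested genes then had differences below 0, from -0.92 for Trac to -0.51 for Cd28, with a median of -0.63 where the median of all tested genes was -0.66. None was called, with limma adjusted p-values of 0.0727 to 0.178, while 45.9% of all genes tested were called in that fit (38.0% lower). An unadjusted p under 0.05 was reached by 3 of the 9, and by at least the 45.9% of all genes tested that were called. In 6 of the 9 (Cd3d, Trbc2, Cd4, Cd8a, Cd8b1 and Cd28) both remaining MKO_PD1 libraries lay below all Cre_PD1 libraries, as did 62.1% of all genes tested, so the genes stood close to the background of that fit. Without MKO_PD1 replicate 1 the direction was the opposite, with 8 of 9 differences above 0, a median of 0.55 and adjusted p-values of 0.431 to 0.974. For 8 of the 9 genes the direction therefore turned on which libraries were included, and 6 also changed sign without Cre_PD1 replicate 1. Cd4 stayed below 0 whichever single library was left out (-0.84 to -0.03). It also turned on scaling for Trac, which stood at 0.34 under median-of-ratios scaling, where all genes had a median of -0.013 and the 9 genes a median of 0.44.

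**Figure D5:**
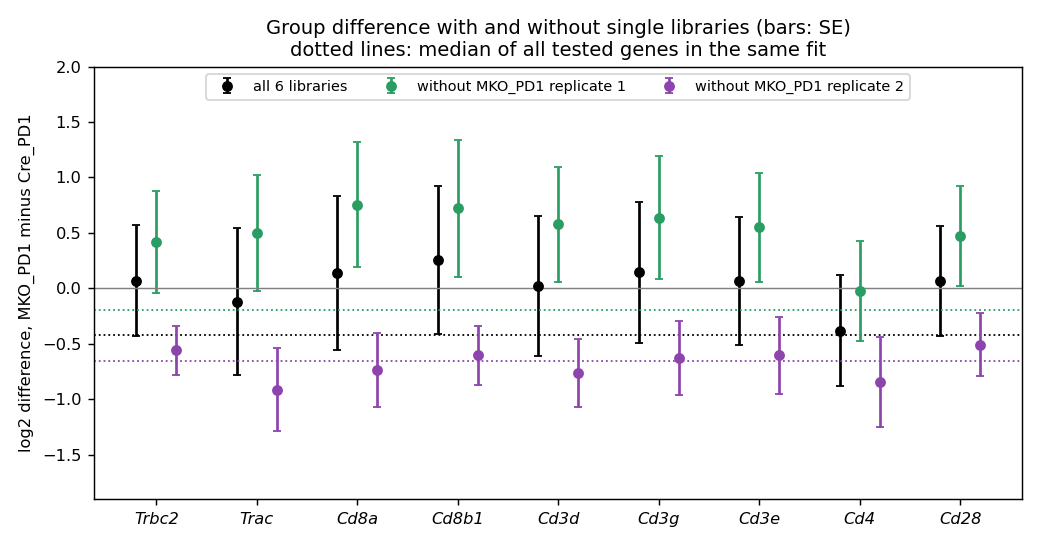
Log2 difference, MKO_PD1 minus Cre_PD1, of the 9 tested genes with SE bars, from all 6 libraries and without MKO_PD1 replicate 1 or 2; dotted lines give the median of all tested genes in the same fit. Without replicate 2 all 9 lie below 0 around the median of all genes, and without replicate 1 all but Cd4 lie above 0.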

How the data were processed

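Polyadenylated RNA of 6 tumours was sequenced, and per the submitters' processing notes STAR 2.7.10a, featureCounts 2.0.3 of Subread and build mm10 were used. The deposited table is named as TPM but holds, per the values, a read signal divided by gene length, and the authors' deposited columns do not share a total. Multiplied by GENCODE M21 exon length and divided by a shared constant of 8.03, 98.5% of 29798 genes with a length and reads gave whole reads in every library, within 0.001 reads (or 1e-05 of the value). Each column was rescaled to 1000000 (TPM). Tests used log2(TPM + 1).

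The filter kept genes at 1 TPM or more in 3 or more libraries, which were compared between groups with limma 3.58.1 (R 4.3.3, mean-variance trend, no covariate), with Benjamini-Hochberg adjustment over all 16506 and a threshold of 0.05. The procedure was tested on simulated data. Within-library ratios were compared by exact two-sided permutation tests over 3 and 3 libraries. The design text counts 3 mice per genotype, and no label ties a library to an animal, so p-values measure the spread between these samples. The rule for named genes takes the 10 genes, Cd247, Lck, Zap70, Lat and Ptprc, up to 4 genes of smallest p per list, and the 10 closest profiles. Of the genes it takes per list, the text prints a selection and gives the others by the counts of their list. A gene of the transcription factor list that this rule names is not reported here. Other genes and ratios were named after their values were seen. The genes and lists were chosen with earlier results of these data known. Alternatives changed the pseudocount, filter, scaling, trend, block, unit (voom on recovered reads) and each library in turn.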

Additional observations from a re-analysis of the deposited data

How the results depend on the processing

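None of the 9 tested genes passed the threshold under any alternative run. The count of genes called over the whole table was 2; it was 0 without a filter on low values, 0 with a filter of 5 TPM, 1 with median-of-ratios scaling and 0 with voom on the recovered reads, and 0 to 7314 when single libraries were left out, 7314 being the count without MKO_PD1 replicate 2. The replicate numbers gave no sign of pairing the samples. Same-numbered libraries correlated at -0.42, -0.26 and 0.049 in their deviations from the group means, and differently numbered ones at -0.23 to 0.39. With 3 libraries a group, these correlations cannot exclude a pairing. In the fit with the replicate block 0 genes were called, and no call among the 9 changed. The block left the 4 ratio differences as they were, with exact sign-flip permutation p-values of 0.5 to 1.

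With a pseudocount of 0.1, Cd3d (-0.013) and Cd28 (-0.062) turned below 0, and Trac turned above 0 (0.34) with median-of-ratios scaling; the cause was not tested. Leaving out single libraries gave ranges of -0.76 to 0.58 for Cd3d, -0.60 to 0.55 for Cd3e, -0.63 to 0.64 for Cd3g, -0.92 to 0.50 for Trac, -0.56 to 0.42 for Trbc2, -0.73 to 0.76 for Cd8a, -0.60 to 0.72 for Cd8b1, -0.51 to 0.47 for Cd28 and -0.84 to -0.03 for Cd4. Without Cre_PD1 replicate 1, 6 of the 9 genes changed sign, and 7 did without MKO_PD1 replicate 2. The log2 ratio differences ranged from 0.24 to 0.81 for Cd8a to Cd4, -0.039 to 0.29 for Cd8b1 to Cd8a, 0.59 to 1.95 for Trdc to Trac and -0.59 to -0.17 for Cd3e to Ptprc. Array quality weights were planned and not run, because their estimate did not converge. Depth limits Trdc, with 3 to 26 reads a library.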

Other observations

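Alpha variable segments, like the beta segments, were most abundant in MKO_PD1 replicate 2. They summed to 13.1, 14.9 and 30.8 TPM in Cre_PD1 replicates 1, 2 and 3 and to 6.34, 41.7 and 10.2 TPM in MKO_PD1 replicates 1, 2 and 3, and of 130 listed segments 18, 29 and 28 and then 16, 36 and 14 were above 0. Gamma variable segments summed to 4.88, 1.65 and 2.63 TPM in Cre_PD1 and 0.874, 9.26 and 2.44 TPM in MKO_PD1. Delta variable segments summed to 0.665, 0 and 1.80 TPM in Cre_PD1 and 0.343, 2.77 and 1.49 TPM in MKO_PD1, from at most 11 reads a library.

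The checkpoint genes Pdcd1, which encodes PD-1, and Ctla4 were named after their values were seen. Pdcd1 measured 16.8, 19.5 and 21.8 TPM in Cre_PD1 and 6.52, 65.8 and 11.8 TPM in MKO_PD1. Ctla4 measured 8.10, 9.04 and 7.30 TPM in Cre_PD1 and 1.60, 23.0 and 5.64 TPM in MKO_PD1. Both were, like the CD3 genes, highest in MKO_PD1 replicate 2 and lowest in MKO_PD1 replicate 1, and neither was called.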
